A study of Homo sapiens with 5 samples.

Results

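ERK signalling switches on genes, some of whose products restrain it. Of these ERK-responsive genes, 10 were read on 5 Affymetrix arrays of MIAPaCa2, an established cell line from a poorly differentiated pancreatic ductal adenocarcinoma (PDAC). They include feedback regulators and transcription factors. They are the phosphatases DUSP4, DUSP5 and DUSP6, the Sproutys SPRY2 and SPRY4, the Sprouty-related SPRED1 and SPRED2, the ETS factors ETV4 and ETV5, and PHLDA1. All probe sets that the platform annotation assigns to 1 of these 10 genes alone were taken, which gave 28 probe sets of 54613, for 10 genes of 19775. No probe set was shared between a member and another gene. The members were chosen by their known place in ERK feedback or in the response to ERK. They were also selected on earlier results of these arrays, the differences of DUSP6 and its relatives between the populations. All values below are therefore descriptions without a test.

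Each array held 1 stably transfected population, not a clone, and all were under drug selection. MP2-α2Δ cells carried an α2 integrin that lacks the cytoplasmic domain and grew on collagenI. MP2-α9α2 cells carried a chimera with the ectodomain and transmembrane domain of α9 and the cytoplasmic domain of α2, and grew on tenascin FNIII. Full-length α2 was carried by MP2-α2/CI cells, which grew on collagenI, and by MP2-α2/TC cells, which grew in standard culture, and MP2-mock cells were mock transfectants. The coatings were 25 μg/mL collagenI and 10 μg/mL tenascin FNIII. Per the study's methods, α2 was driven by a cytomegalovirus promoter, α2 and α2Δ cells were selected with zeocin and panned on collagenI, and α9α2 cells were selected with G418 and panned on tenascin, so that construct, substrate and drug cannot be told apart between the MP2-α2Δ and the MP2-α9α2 array. Both populations with full-length α2 came from 1 panning. For MP2-mock cells the sources used here give neither the substrate nor the drug.

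With 1 array per population, no difference has a replicate check or an error, and no p was computed. Values are log2 expression as normalized by the authors, ranging from 2.21 to 16.28. A floor for each array, 2.21 to 2.27, was the 95th percentile of the probe sets for odorant receptors, 107 in number, and each difference was taken with lower values set to it. Probe sets at least 2-fold apart (1 on the log2 scale) are called here. The arrays of MP2-α2/CI, MP2-α2/TC and MP2-mock cells shared a minimum of 2.24, and those of MP2-α2Δ and MP2-α9α2 cells shared one of 2.21, so that differences are given first within these sets. ITGA2, which encodes α2, read 7.28 and 3.28 by its 2 probe sets in MP2-α2Δ cells and lay at the array minimum on the other 4 arrays, those labelled as full-length α2 included. All 4 probe sets of ITGA9 lay at the minimum on all 5 arrays, the one labelled MP2-α9α2 included. Per the study's text, the arrays detected α2 in none of the cells, and the ITGA2 probes lie in 3′ untranslated sequence that the α2 construct does not carry. By that account the ITGA2 readings do not measure the construct. The readings in MP2-α2Δ cells differ from the study's statement, and their source was not tested. For ITGA9 the position of the probes is not stated. The labels, by which the populations are named throughout, are therefore not checked by these readings. The keratin genes KRT8, KRT18 and KRT19 read 11.74 to 15.22 on all arrays, whereas KRT7, EPCAM and CDH1, which mark ductal epithelium, read at most 2.37. Of 5 fibroblast markers, COL1A1 and COL1A2 read 7.18 to 13.08 and the other three lay at the minimum. No acinar, blood or endothelial marker read above 3.38.

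As background, ERK is the last kinase of the RAS, RAF and MEK cascade, which is active in most PDAC. DUSP4, DUSP5 and DUSP6 remove phosphate from ERK, the Sproutys act between receptors and RAF, and the SPREDs recruit neurofibromin to RAS. ETV4 and ETV5 are PEA3 factors of the ETS family that carry the ERK signal to target genes. Transcript levels of these genes are widely used as a readout of ERK output.

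DUSP6, a cytoplasmic phosphatase that acts on ERK, stood out among the members. Its probe set 208891_at read 3.95 on the MP2-α2Δ and 8.55 on the MP2-α9α2 array. The same probe set read 7.90 in MP2-α2/CI, 7.34 in MP2-α2/TC and 5.72 in MP2-mock cells. The level was thus low in MP2-α2Δ cells, and on the other set of arrays it stood highest on collagenI and lowest in mock cells. Probe set 208892_s_at read 2.78 in MP2-α2Δ, 8.50 in MP2-α9α2, 7.84 in MP2-α2/CI, 7.23 in MP2-α2/TC and 5.91 in MP2-mock cells. Probe set 208893_s_at read 2.63, 6.37, 7.48, 7.03 and 5.61 on the same arrays in the same order. All 3 probe sets therefore gave the same order within each set of arrays. The 2 lowest values, both from MP2-α2Δ cells, were less than 1 log2 unit above the floor.

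Between the arrays labelled MP2-α2Δ and MP2-α9α2, DUSP6 differed by -4.60, -5.71 and -3.74 on the log2 scale, or 24.2-fold, 52.5-fold and 13.3-fold lower in MP2-α2Δ cells. With a floor of 4 on every array, the differences were -4.55, -4.50 and -2.37, so that the size for the probe sets that read lowest in MP2-α2Δ cells, 208892_s_at and 208893_s_at, depended on the floor. As first given, they were the 6th, 2nd and 24th largest decreases of 30975 probe sets above the floor on either array. Against MP2-mock, DUSP6 in MP2-α2/CI cells was higher by 4.54-fold, 3.82-fold and 3.66-fold, with log2 differences of 2.18, 1.93 and 1.87. They ranked 6th, 12th and 14th of 29696 probe sets. In MP2-α2/TC cells the differences from MP2-mock were 1.61, 1.32 and 1.43, at ranks 18, 37 and 29 of 29885. MP2-α2/CI exceeded MP2-α2/TC cells by 0.57, 0.61 and 0.45, so that no DUSP6 probe set was 2-fold apart between collagenI and standard culture.

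**Figure D1:**
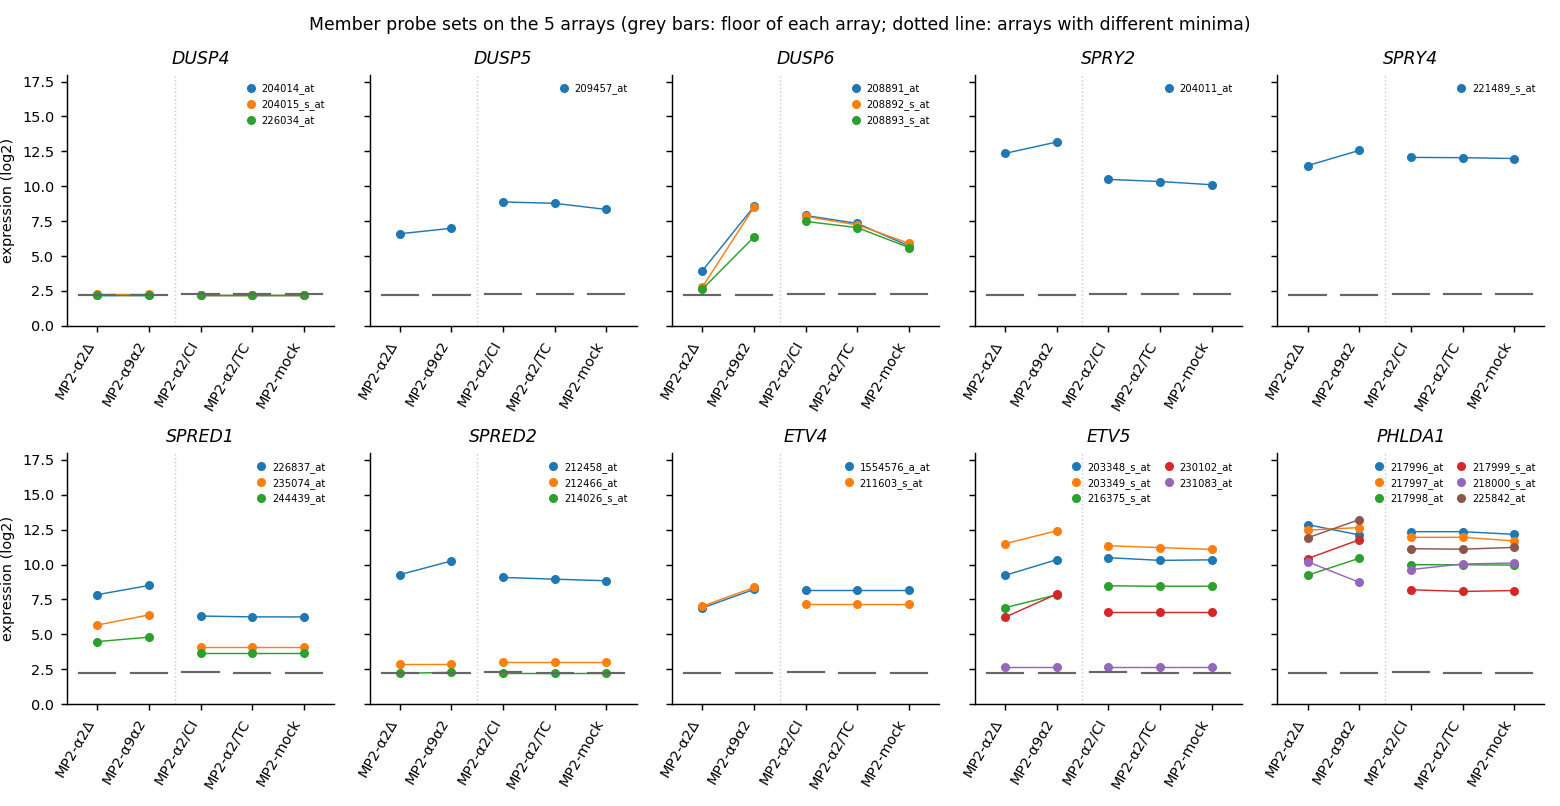
Log2 expression (y axis) of the 28 member probe sets on the 5 arrays (x axis), 1 panel per gene and 1 point per array, with grey bars at the floor of each array and a dotted line between arrays with different minima. DUSP6 reads 2.63 to 3.95 in MP2-α2Δ and 6.37 to 8.55 in MP2-α9α2 cells, and 5.61 to 5.91 in MP2-mock cells.

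The promoter windows of DUSP6, SPRY4 and PHLDA1 are shown because these members were at least 2-fold apart between the MP2-α2Δ and the MP2-α9α2 array and had a window in the RefSeq table, which was matched by symbol for 6 of the 10 members. They cover 250 bases before and 50 after a gene start on the minus strand of build GRCh38.p14, at chr12:89352452-89352751 for DUSP6, chr5:142324198-142324497 for SPRY4 and chr12:76031727-76032026 for PHLDA1. For DUSP6 and PHLDA1 this start is the outermost one of the annotated gene, at 89352501 and 76031776. The SPRY4 window lies wholly inside its annotated gene, which runs to 142325021, so that its start is an internal one. The stretch before the outermost SPRY4 start was not searched. Capitals mark the PEA3 site AGGAAG and the ETS site CCGGAA on either strand.
DUSP6: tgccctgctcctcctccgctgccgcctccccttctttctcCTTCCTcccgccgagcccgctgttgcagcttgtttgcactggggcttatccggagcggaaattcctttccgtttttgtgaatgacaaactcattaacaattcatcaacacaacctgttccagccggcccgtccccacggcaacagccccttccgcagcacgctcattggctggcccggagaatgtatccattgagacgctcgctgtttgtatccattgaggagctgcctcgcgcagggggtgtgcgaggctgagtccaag
SPRY4: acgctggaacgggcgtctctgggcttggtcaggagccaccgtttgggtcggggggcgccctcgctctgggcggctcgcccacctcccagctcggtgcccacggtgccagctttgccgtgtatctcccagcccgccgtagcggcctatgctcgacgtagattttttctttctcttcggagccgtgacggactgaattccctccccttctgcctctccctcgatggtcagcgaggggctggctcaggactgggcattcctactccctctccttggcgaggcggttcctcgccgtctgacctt
PHLDA1: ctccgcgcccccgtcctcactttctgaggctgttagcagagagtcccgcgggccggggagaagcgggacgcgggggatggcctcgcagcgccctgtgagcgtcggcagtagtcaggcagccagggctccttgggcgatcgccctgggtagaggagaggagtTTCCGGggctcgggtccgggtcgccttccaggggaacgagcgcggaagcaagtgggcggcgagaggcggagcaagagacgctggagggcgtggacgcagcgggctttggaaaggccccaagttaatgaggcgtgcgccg
The DUSP6 window holds 1 PEA3 site, the PHLDA1 window 1 ETS site, and the SPRY4 window neither. A PEA3 site occurred in 4 of the 6 member windows (DUSP6, SPRY2, SPRED1 and SPRED2) and in 33.7% of 27305 windows of the table, 1 per gene. An ETS site occurred in 2 of 6 (SPRY2 and PHLDA1) and in 17.6% of all windows. The AP-1 site TGANTCA (7.76% of all windows), the cyclic AMP response element TGACGTCA (1.98%) and the CArG box of serum response factor (1.29%) occurred in none of the 6. The SP1 box GGGCGG occurred in 5 of 6, all but DUSP6, and in 44.6% of all windows. Both strands were searched, and these matches are descriptions of the letters only. The GC content of the DUSP6 window was 58.3%, equal to the median of all windows, while those of SPRY2, SPRY4, SPRED1, SPRED2 and PHLDA1 were higher, up to 76.3% for SPRED1.

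The other ERK phosphatases gave a different picture. DUSP5, a nuclear phosphatase of ERK, read 6.59 on the MP2-α2Δ and 6.99 on the MP2-α9α2 array by its single probe set, 209457_at. It read 8.87 in MP2-α2/CI, 8.78 in MP2-α2/TC and 8.34 in MP2-mock cells. The log2 difference was -0.40 between the MP2-α2Δ and the MP2-α9α2 array, and 0.54 on the MP2-α2/CI and 0.44 on the MP2-α2/TC array against MP2-mock, none of them 2-fold. DUSP4, a nuclear phosphatase of ERK and other MAP kinases, lay at or below the floor by 2 of its 3 probe sets on all 5 arrays. The third read 2.27 in MP2-α2Δ and MP2-α9α2 cells and 2.24 on the other three arrays, so that DUSP4 lay at or close to the floor throughout.

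The Sproutys and SPREDs differed less between the arrays than DUSP6, and only SPRY4 passed 2-fold within a set. SPRY2, an adaptor that blocks receptor signalling to RAS, read 12.35 on the MP2-α2Δ and 13.16 on the MP2-α9α2 array, a difference of -0.81. It read 10.49 in MP2-α2/CI, 10.34 in MP2-α2/TC and 10.11 in MP2-mock cells, in the same order as DUSP6. SPRY4, which acts upstream of RAF, read 11.47 on the MP2-α2Δ and 12.57 on the MP2-α9α2 array and was 2.13-fold lower in the first. On the other arrays it read 12.06 in MP2-α2/CI, 12.05 in MP2-α2/TC and 11.98 in MP2-mock cells, a span under 0.1. SPRED1, a membrane-bound inhibitor of RAS activation, was lower on the MP2-α2Δ than on the MP2-α9α2 array by all 3 probe sets, with log2 differences of -0.66, -0.73 and -0.32. Its probe set 226837_at read 7.84 and 8.50 there, and 6.31, 6.25 and 6.25 in MP2-α2/CI, MP2-α2/TC and MP2-mock cells. Probe set 235074_at read 5.66 and 6.39 in MP2-α2Δ and MP2-α9α2 cells and 4.06 on the other three arrays, and 244439_at read 4.48 and 4.80 against 3.63. All 3 SPRED1 probe sets thus put MP2-α2Δ cells below MP2-α9α2 cells, and 2 of them were identical on the arrays of the mock set. SPRED2, a paralogue with the same role, read 9.27 on the MP2-α2Δ and 10.25 on the MP2-α9α2 array by 212458_at. That was 1.97-fold, just under the threshold, and read -1.02 after centring and -1.04 after quantile normalization. The same probe set read 9.08 in MP2-α2/CI, 8.95 in MP2-α2/TC and 8.84 in MP2-mock cells. The other SPRED2 probe sets read at most 3.05.

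ETV4 and ETV5 were lower on the MP2-α2Δ than on the MP2-α9α2 array and nearly level on the other arrays. ETV4 read 6.89 on the MP2-α2Δ and 8.22 on the MP2-α9α2 array by 1554576_a_at, and 7.02 and 8.36 by 211603_s_at, or 2.50-fold and 2.54-fold lower in MP2-α2Δ cells. In MP2-α2/CI, MP2-α2/TC and MP2-mock cells both probe sets had identical values, 8.15 and 7.16. ETV5 had 4 probe sets well above the floor. They differed by -1.12, -0.92, -0.93 and -1.65 between the MP2-α2Δ and the MP2-α9α2 array, with 203348_s_at at 9.22 and 10.34 and 230102_at at 6.23 and 7.88. All 4 thus lay on the same side, and 2 of them were past 2-fold. Probe sets 203349_s_at (11.49 and 12.41) and 216375_s_at (6.90 and 7.83) were just inside 2-fold. On the other set, ETV5 differences from MP2-mock ranged from 0 to 0.26 in MP2-α2/CI cells. The fifth probe set, 231083_at, read at most 2.70.

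PHLDA1, a protein with a pleckstrin homology-like domain whose gene is induced by ERK signalling, was read by 6 probe sets that disagreed. Between MP2-α2Δ and MP2-α9α2 cells, 217998_at (9.23 and 10.44), 217999_s_at (10.42 and 11.77) and 225842_at (11.91 and 13.21) were at least 2-fold lower. Probe set 218000_s_at, at 10.20 and 8.73, was 2.77-fold higher instead. Probe sets 217996_at (12.86 and 12.12) and 217997_at (12.47 and 12.64) differed by 0.74 and -0.18. No single direction can be given for PHLDA1 from these arrays. On the other set, 218000_s_at read 9.64 in MP2-α2/CI, 10.04 in MP2-α2/TC and 10.11 in MP2-mock cells, and 217999_s_at read 8.19, 8.07 and 8.14. Differences from MP2-mock ranged from -0.47 to 0.26 in MP2-α2/CI and from -0.13 to 0.26 in MP2-α2/TC cells.

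**Figure D2:**
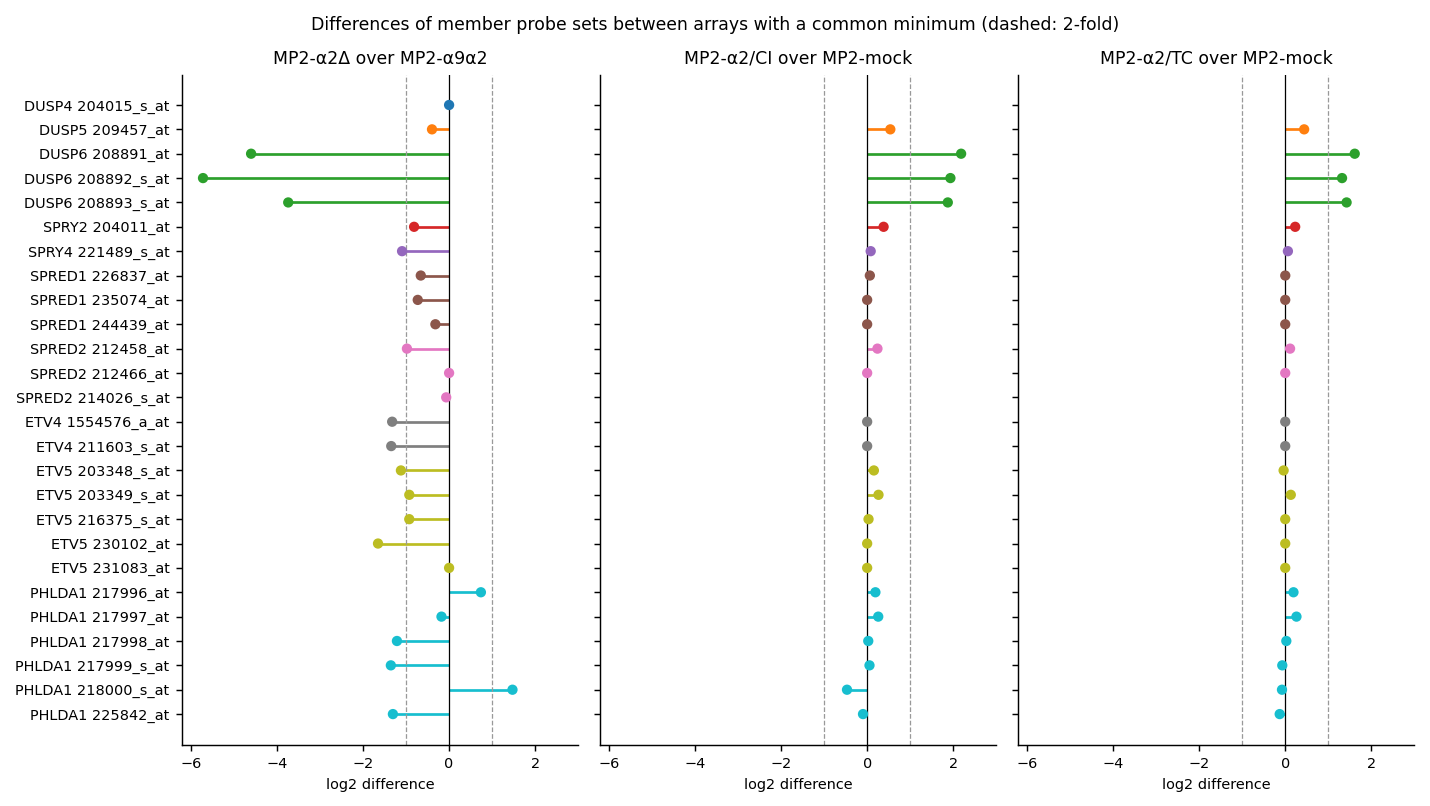
Log2 differences (x axis) of 26 member probe sets (y axis) in 3 comparisons of arrays with a common minimum, 1 point per probe set above the floor on either array of the comparison, with dashed lines at 2-fold. In MP2-α2Δ over MP2-α9α2, 11 points lie at or beyond 2-fold lower and 1 at or beyond 2-fold higher, and in MP2-α2/CI over MP2-mock the 3 points past 2-fold are all DUSP6.

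Counted together, 11 of 26 member probe sets above the floor were at least 2-fold lower on the MP2-α2Δ than on the MP2-α9α2 array, for DUSP6, SPRY4, ETV4, ETV5 and PHLDA1, against 4.95% of all probe sets above the floor. Of these 26, 1, a PHLDA1 probe set, was at least 2-fold higher, against 7.56% of all. Irrespective of size, 21 members were lower, 2 higher and 3 identical, whereas 36.3% of all probe sets were lower and 34.0% higher. The median difference of the members was -0.92 and that of all probe sets 0. For MP2-α2/CI over MP2-mock, 3 of 24 member probe sets, all of DUSP6, were at least 2-fold higher, against 0.236% of all, and none was lower, against 0.256%. For MP2-α2/TC over MP2-mock the same 3 were at least 2-fold higher, against 0.214% of all, and none was lower, against 0.248%. These comparisons share the MP2-mock array. For MP2-α2/CI over MP2-α2/TC none of 24 was 2-fold apart, against 0.0335% of all probe sets higher and 0.104% lower. The members were selected on these contrasts, and nothing is read from the counts. Of the 24 member probe sets above the floor throughout, 7 had identical values (within 1e-06) on the MP2-α2/CI, MP2-α2/TC and MP2-mock arrays, as had 36.4% of the 27320 probe sets that exceeded the floor on every array. Why values repeat between these arrays was not tested.

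**Figure D3:**
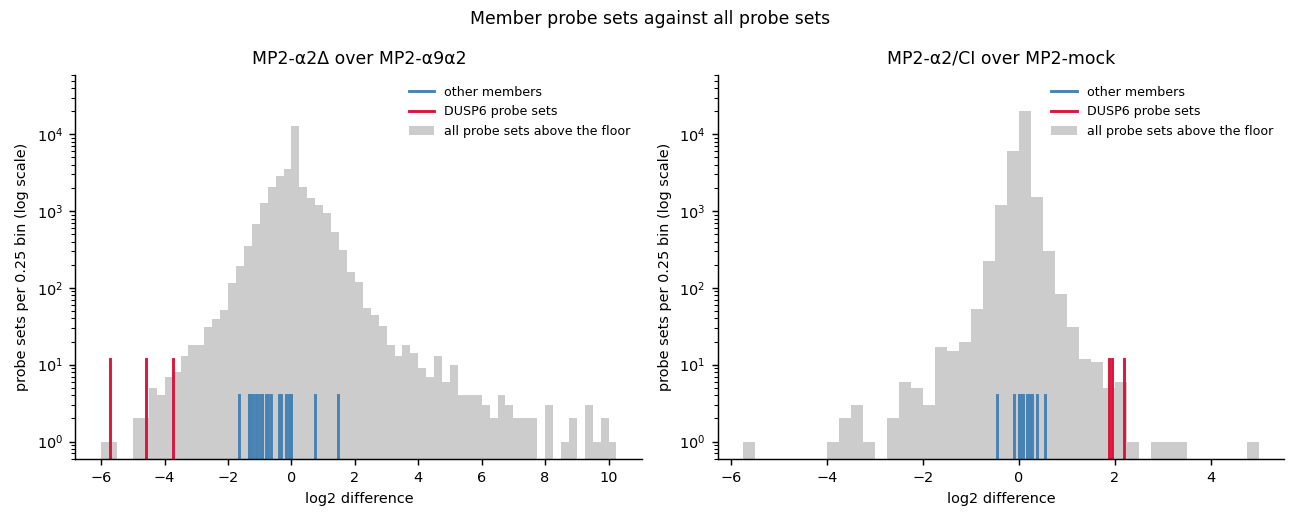
Number of probe sets per bin of 0.25 (y axis, log scale) against the log2 difference (x axis) for all probe sets above the floor, in MP2-α2Δ over MP2-α9α2 cells (30975 probe sets) and MP2-α2/CI over MP2-mock cells (29696), with the members marked below. The DUSP6 probe sets lie at -3.74 to -5.71 in the first and at 1.87 to 2.18 in the second, apart from the other members.

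Levels of MP2-α2Δ and MP2-α9α2 cells against MP2-mock were set across arrays taken as normalized separately. Over the 27320 probe sets the median difference was 0.53 on the MP2-α2Δ array and 0.54 on the MP2-α9α2 array, and centring turned it to -0.31 and -0.27, so that only members whose direction was the same after centring and after quantile normalization of the 5 arrays are given a direction. DUSP6 in MP2-α2Δ cells differed from MP2-mock by -1.77, -3.12 and -2.98, by -2.61, -3.96 and -3.82 after centring, by -2.43, -3.57 and -3.38 after quantile normalization, and by -1.72, -1.91 and -1.61 with a floor of 4. In MP2-α9α2 cells 2 DUSP6 probe sets differed from MP2-mock by 2.83 and 2.59, and by 2.02 and 1.79 after centring. The third differed by 0.76 as deposited but by -0.04 after centring, and has no direction. DUSP6 in MP2-α2Δ cells thus lay below MP2-mock cells, whereas on both arrays labelled as full-length α2 it lay above them.

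SPRY2 was higher than in MP2-mock by 2.25 in MP2-α2Δ and by 3.06 in MP2-α9α2 cells, and by 1.40 and 2.25 after centring. DUSP5 lay below MP2-mock on both arrays, with differences of -1.74 and -1.35, and of -2.58 and -2.15 after centring. SPRY4 differed by -0.51 in MP2-α2Δ cells, by -1.35 after centring and by -1.06 after quantile normalization. In MP2-α9α2 cells SPRY4 differed by 0.58, but by -0.22 after centring, and has no direction there. The 2 ETV4 probe sets differed by -1.26 and -0.15 in MP2-α2Δ cells, and by -2.10 and -0.99 after centring. For ETV5, 203348_s_at, 216375_s_at and 230102_at lay below MP2-mock in MP2-α2Δ cells, with differences of -1.11, -1.54 and -0.39, and of -1.95, -2.38 and -1.23 after centring, whereas 203349_s_at changed sign with the scaling. In MP2-α9α2 cells ETV5 probe set 216375_s_at also lay below MP2-mock, with a difference of -0.61, and of -1.42 after centring. By contrast, ETV5 203349_s_at and 230102_at and ETV4 211603_s_at lay above MP2-mock in MP2-α9α2 cells. They differed by 1.33, 1.26 and 1.196, and by 0.53, 0.46 and 0.39 after centring, then inside 2-fold. The ETV5 probe sets thus disagreed in MP2-α9α2 cells. There ETV4 probe set 1554576_a_at and ETV5 probe set 203348_s_at differed by 0.06 and 0.01 as deposited. After centring they differed by -0.74 and -0.80, and they have no direction. PHLDA1 probe set 217999_s_at lay above MP2-mock by 2.28 and 3.64, and by 1.44 and 2.83 after centring, while 218000_s_at differed by 0.09 and -1.38. After centring 218000_s_at differed by -0.75 and -2.19, so that it has no direction in MP2-α2Δ cells. In MP2-α9α2 cells PHLDA1 225842_at and 217997_at lay above MP2-mock by 1.99 and 0.95, and by 1.18 and 0.15 after centring. There 217996_at lay below MP2-mock, with differences of -0.04, and of -0.85 after centring. In MP2-α2Δ cells 217998_at lay below MP2-mock, with -0.73, and with -1.57 after centring. The remaining PHLDA1 differences changed sign with the scaling. SPRED1 differed by 1.59 and 2.25 by 226837_at, and by 0.75 and 1.45 after centring, so that this probe set stayed past 2-fold in MP2-α9α2 cells only. The same held for 235074_at, at 0.76 and 1.53 after centring. Probe set 244439_at fell from 0.85 and 1.17 to 0.01 and 0.36, inside 2-fold on both arrays. SPRED2 probe set 212458_at lay above MP2-mock by 1.42 in MP2-α9α2 cells, and by 0.61 after centring. In MP2-α2Δ cells 212458_at differed by 0.44, but by -0.40 after centring, and has no direction. For probe sets that read at most 3.05 on every array no direction is given. In all, 7 of 25 member probe sets were at least 2-fold lower and 4 higher on the MP2-α2Δ than on the MP2-mock array, against 6.77% and 30.2% of all probe sets. After centring, 10 were lower and 2 higher, against 22.4% and 12.5% of all. For MP2-α9α2 over MP2-mock, 12 of 26 were higher and 2 lower, against 31.7% and 9.52% of all. After centring, 7 were higher and 3 lower, against 15.7% and 23.8%.

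Genes around the members in the pathway were read by 1 probe set each, the one with the highest mean over the 5 arrays. ETV1 and SPRY1, close relatives of the members, were at least 2-fold lower on the MP2-α2Δ than on the MP2-α9α2 array. Against MP2-mock they differed by -0.20 and -0.02 in MP2-α2Δ cells, across sets and as deposited only. There the other ETV1 probe sets above the floor differed by -1.74, -1.07 and -1.64, and the other SPRY1 probe set by -2.07. No direction against MP2-mock is given for these 2 genes. SPRED3 was the only other relative above the floor. ETV1, the remaining PEA3 factor, read 5.27 on the MP2-α2Δ and 9.63 on the MP2-α9α2 array, a difference of -4.36, and 4 of its 5 probe sets were at least 2-fold lower in MP2-α2Δ cells. It read 6.35 in MP2-α2/CI, 5.86 in MP2-α2/TC and 5.47 in MP2-mock cells, by the same probe set, the order that DUSP6 had. The other ETV1 probe sets above the floor did not give this order, since 1 read 5.18, 5.48 and 5.18 on these arrays, 1 was identical at 3.70, and 1 read 4.91 in MP2-α2/CI and 4.74 in both MP2-α2/TC and MP2-mock cells. SPRY1 read 9.98 on the MP2-α2Δ and 11.67 on the MP2-α9α2 array, and 10.60, 10.34 and 9.99 in MP2-α2/CI, MP2-α2/TC and MP2-mock cells, although its other probe set was identical, at 5.41, in MP2-α2Δ and MP2-α9α2 cells. SPRED3, a further SPRED, read 7.67 in both, and SPRY3 lay at the minimum on all 5 arrays.

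Of 6 other MAP kinase phosphatase genes above the floor, none was 2-fold apart within a set of arrays. The median difference was -0.26 in MP2-α2Δ over MP2-α9α2 cells and 0 in MP2-α2/CI over MP2-mock cells. DUSP1, which acts mainly on p38 and JNK, read 10.14 in MP2-α2Δ, 10.39 in MP2-α9α2, 11.69 in MP2-α2/CI, 11.73 in MP2-α2/TC and 11.55 in MP2-mock cells. Other inhibitors of RAS and ERK signalling, such as ERRFI1, an inhibitor of EGFR that read 13.68 to 14.19, also gave none past 2-fold, of 7 above the floor in MP2-α2Δ over MP2-α9α2 and 8 in MP2-α2/CI over MP2-mock cells. Of 16 components of the cascade, GAB1, a docking protein of receptor kinases (3.49 and 4.59), and KSR1, a scaffold of RAF, MEK and ERK (6.16 and 7.26), were at least 2-fold lower on the MP2-α2Δ than on the MP2-α9α2 array, and none was apart between the MP2-α2/CI and the MP2-mock array. Of their probe sets, 2 of 7 for GAB1 and 1 of 4 for KSR1 were at least 2-fold apart. Over all genes, 4.97% were lower and 10.1% higher in the first comparison, and 0.389% and 0.262% in the second.

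Genes induced by ERK signalling outside the members differed in both directions. Of 18 above the floor, 4 were at least 2-fold higher and 3 lower on the MP2-α2Δ than on the MP2-α9α2 array, with a median of 0.05. Over all genes, 10.1% were higher and 4.97% lower. IER3, an early response gene, read 9.13 on the MP2-α2Δ and 5.15 on the MP2-α9α2 array, and UPP1, a uridine phosphorylase, read 10.03 and 7.54. FOSL1, an AP-1 subunit, read 10.03 in MP2-α2Δ cells, 2.03 above MP2-α9α2 cells, and EGR3, an early growth response factor, read 9.08 and 7.74. These 4 genes lay opposite to DUSP6. CCND1, which encodes cyclin D1, read 8.99 on the MP2-α2Δ and 10.61 on the MP2-α9α2 array, HBEGF, an EGFR ligand, read 6.77 and 8.12, and the cytokine gene LIF read 8.17 and 9.31. The other CCND1 probe set read 4.86 and 5.22, a difference of -0.36 and not 2-fold. Of the 4 HBEGF probe sets, 2 were at least 2-fold apart. In MP2-α2/CI over MP2-mock cells IER3 was the only gene of the list past 2-fold, at 7.54 against 8.74, beside 0.262% of all genes higher and 0.389% lower. It read 7.35 in MP2-α2/TC cells. IER3 thus lay opposite to DUSP6 in these 3 comparisons, of which 2 share the MP2-mock array.

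**Figure D4:**
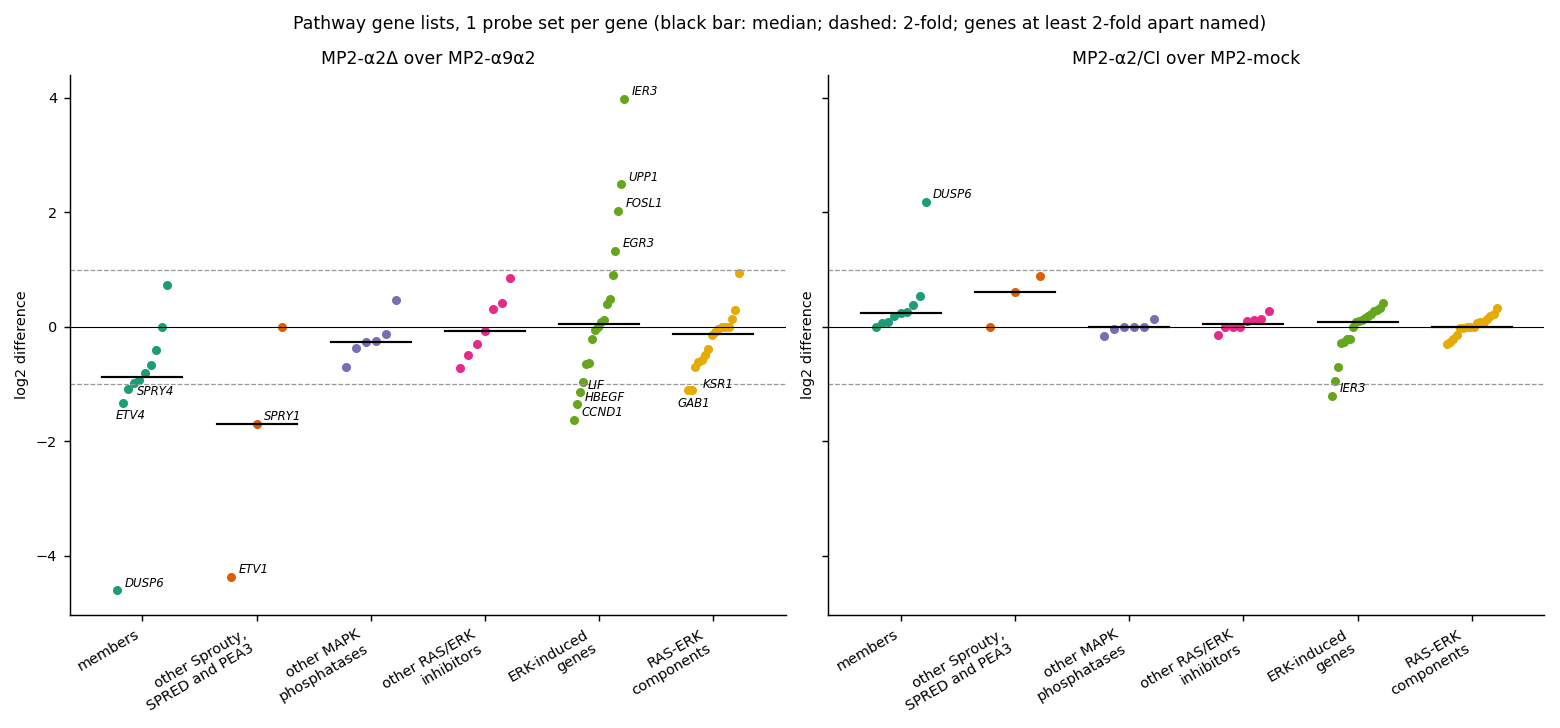
Log2 differences (y axis) of the genes of 6 pathway lists (x axis), 1 point per gene above the floor on either array, in MP2-α2Δ over MP2-α9α2 and MP2-α2/CI over MP2-mock cells, with black bars at the median, dashed lines at 2-fold and names for genes at least 2-fold apart. ETV1 (-4.36) lies next to DUSP6 (-4.60) in the first comparison, while IER3 (3.98) lies opposite.

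The genes whose pattern came closest to DUSP6 were ranked by the Euclidean distance over 3 log2 differences, those of MP2-α2/TC and MP2-α2/CI over MP2-mock, which share an array, and of MP2-α2Δ over MP2-α9α2, among 26697 probe sets with 1 gene symbol. The DUSP6 probe set 208892_s_at served as the base. PTPRG, a receptor tyrosine phosphatase, came first at a distance of 1.70, with differences of 0.77, 1.05 and -4.37, the last a bound since PTPRG lay at the floor in MP2-α2Δ cells. PRKACB, a catalytic subunit of protein kinase A, followed at 1.75 with 0.99, 1.13 and -4.19. RALGPS2, an exchange factor for RAL, came next at 1.91 with 1.34, 1.46 and -3.86. Between the MP2-α2Δ and the MP2-α9α2 array, these 3 differences were smaller than that of 208892_s_at and larger than that of the DUSP6 probe set 208893_s_at (-3.74).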

How the data were processed

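RNA of 5 stably transfected MIAPaCa2 populations was hybridised to Affymetrix arrays, 1 per population. For every probe set the authors deposited normalized values that were taken as log2 because of their range, although no source used here states the log base. GCRMA and MAS5 stand in the submitters' processing notes, with no version and no word on which gave the values. The sets in which arrays were normalized are not stated and were taken from their minima. The table held 54675 probe sets. After 62 controls were dropped, 41091 carried 1 gene symbol, 1801 several and 11721 none. Differences were taken after values were raised to the floor of each array, in Python 3.11.15. The calls were tried on simulated arrays with a common base level and no shift between sets. Changes were put only into probe sets well above the floor. That trial does not cover values near the floor or differences across sets. With 1 array per group the number of arrays limits the precision, and no test was made. The members and the pathway lists were chosen with earlier results of these data known. All member probe sets, list genes at least 2-fold apart in a comparison within a set of arrays, and the 3 genes nearest to DUSP6 were named, and a few other list genes (DUSP1, ERRFI1, SPRED3 and SPRY3) were chosen after their values were seen. The alternatives were no floor or one of 4, centring, quantile normalization, 1.5-fold or 3-fold, leaving out the suffixes _x_at and _s_at, whose probes may match more than 1 transcript, and 1 probe set per gene. Promoter windows are from RefSeq, build GRCh38.p14, with the first window listed for each gene.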

Additional observations from a re-analysis of the deposited data

Results flagged for a closer look

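DUSP6 was singled out because its difference from MP2-mock ran in opposite directions, at least 2-fold each way, as deposited, after centring and after quantile normalization. MP2-α2Δ cells, on collagenI, differed from MP2-mock by -1.77, -3.12 and -2.98, and MP2-α2/CI cells, also on collagenI, by 2.18, 1.93 and 1.87. The differences between these effects were -3.95, -5.06 and -4.85. MP2-α9α2 cells differed from MP2-mock by 2.83 and 2.59 by the probe sets 208891_at and 208892_s_at. The MP2-α2Δ effect lay below theirs by -4.60 and -5.71. MP2-mock cancels here, so that these values repeat the within-set differences given above and are no further observation. Probe set 208893_s_at was not flagged in this pair, since it differed by 0.76 in MP2-α9α2 cells, and by -0.04 after centring. The difference between these effects was not tested, all of them share the MP2-mock array, and those of MP2-α2Δ and MP2-α9α2 cells cross sets of arrays with different minima.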

How the results depend on the processing

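No paired analysis was possible because each population had 1 array, and for the same reason no array could be left out. Within the sets of arrays, all 112 member differences kept their side of 2-fold without a floor and with a floor of 4, although that floor moved DUSP6 208892_s_at to -4.50 and 208893_s_at to -2.37 between the MP2-α2Δ and the MP2-α9α2 array. After centring and after quantile normalization 111 kept it, the exception being SPRED2 between the MP2-α2Δ and the MP2-α9α2 array. Without probe sets ending in _s_at or _x_at, 5 member probe sets were lower and 0 higher in MP2-α2Δ cells there, and DUSP6 was read by 1 probe set, so that 1 was higher than MP2-mock on each full-length α2 array. Against MP2-mock, 3 were then lower on the MP2-α2Δ and 1 on the MP2-α9α2 array. With 1 probe set per gene, 3 were lower and 0 higher on the MP2-α2Δ than on the MP2-α9α2 array, against 4.97% and 10.1% of all genes. On each full-length α2 array 1 was higher than MP2-mock, against 0.262% of all genes for MP2-α2/CI and 0.292% for MP2-α2/TC. Against MP2-mock, 2 were then higher and 3 lower in MP2-α2Δ cells, beside 30.2% and 6.91% of all genes. In MP2-α9α2 cells 5 were higher and 1 lower, beside 31.7% and 11%. At 1.5-fold, 17 were lower and 2 higher on the MP2-α2Δ than on the MP2-α9α2 array, 8 higher on the MP2-α2Δ than on the MP2-mock array, and 1 higher on the MP2-α2/CI than on the MP2-α2/TC array. At 3-fold, 4 were lower and 0 higher on the MP2-α2Δ than on the MP2-α9α2 array, and against MP2-mock 1 was higher in MP2-α2/TC cells, 7 were higher and 0 lower in MP2-α9α2 cells, and 4 were lower in MP2-α2Δ cells. Across the sets, centring and quantile normalization each gave 2 above MP2-mock on the MP2-α2Δ and 7 on the MP2-α9α2 array, and quantile normalization gave 11 lower in MP2-α2Δ cells. After quantile normalization, 15.1% of all probe sets were higher and 15.1% lower in MP2-α2Δ cells, and 18.2% were higher in MP2-α9α2 cells. These changes follow from fewer probe sets, another threshold or the shift between the sets. For 1.5-fold, 3-fold and the left-out suffixes no share over all probe sets was computed, and nothing is read from those counts. Signal near the floor limits DUSP4 and DUSP6 in MP2-α2Δ cells.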
